A study of Capsicum annuum with 6 samples.

Results

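The 200 most abundant annotated transcripts of the first branch site of pepper (Capsicum annuum) are described here, the site where the main stem forks. They are the 200 genes with a cv.59 chromosome identifier that had the highest mean FPKM over 6 libraries, taken from 21347 such genes and from 24829 listed genes and loci in all. FPKM is the number of fragments per kilobase of exon, scaled to the mapped reads of the library, so it compares levels between genes of unequal length. A further 215 annotated genes, in blocks of chromosomes 4 and 7 and at 1 position of chromosome 3, were left out by identifier, and 9 of these lay above the limit. The 3169 loci called LJ_newGene were also not eligible, and 9 of them lay above it. The tissue came at the early flowering stage from B010, a compact accession with a small angle between its branches, and from B003, a loose accession with a large one. There were 3 replicates of each, and 8 plants were pooled for every replicate. No treatment is described for either accession. They differ in genotype as a whole, and not at 1 chosen allele. With 1 accession for each angle, a difference of angle cannot be told apart from any other difference between the accessions. Both were aligned to a reference genome of a further line, cv.59, so that differences in level and in how well the reads of each accession align cannot be told apart either.

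In plant stems and young shoots, the most abundant polyadenylated transcripts are usually those of the general machinery of the cell and of the functions of the dominant cell types. Ribosomal proteins, translation factors, histones, tubulins and ubiquitin belong to the former, and photosynthesis, cell wall, water transport and lipid transfer proteins to the latter. Because sequencing samples a library in proportion to its contents, a transcript that takes a larger share leaves a smaller share for all others, and levels are therefore relative. The values used here do not pair the cv.59 identifiers with gene names, and 0 of 24829 identifiers matched the RefSeq gene table of the species, so the genes are given by identifier and no function is assigned to any of them. For the same reason the tissue could not be checked against marker genes.

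These genes were chosen by their mean FPKM, so their levels, shares and ranks are a description without a test. They ran from 5266 FPKM for the highest gene through 1554 FPKM at place 10, 588 at place 50 and 384 at place 100 to 266 at place 200. The median of all 21347 eligible genes was 10.8 FPKM. Above 1000 FPKM stood 17 genes, and the 47 highest held the first 50% of the summed level of the 200. Just inside the limit were Capann_59Chr10g021690, Capann_59Chr06g027340 and Capann_59Chr09g026130 with means of 266.9, 266.8 and 266.2 FPKM. Just outside were Capann_59Chr08g019030, Capann_59Chr01g018550 and Capann_59Chr06g009970 with 264.7, 263.4 and 263.2 FPKM, so the last places are not sharply set. With any 1 library left out of the mean, between 183 and 189 of the 200 genes were chosen again, and with the geometric mean 174 were. The lowest count of any of these genes in any library was 143, far above the 3 counts that a count of 0 allows, so detection did not limit any value.

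The libraries did not all rank their abundant transcripts alike, and 2 of them stood apart. Of the 200 highest genes of each library, B010 replicates 1 and 2 shared 170 and B003 replicates 2 and 3 shared 184. B010 replicate 3 shared 127 with replicate 1 and 105 with replicate 2 of its own accession, but also 127 with B003 replicate 1. B003 replicate 1 shared 126 and 123 with replicates 2 and 3 of its accession, no more than with B010 replicate 3. Across the 200 genes, which are not independent and share their libraries, Pearson's r of log2(FPKM + 1) was 0.60 between B010 replicate 3 and B003 replicate 1, against 0.51 and 0.53 between B003 replicate 1 and its own replicates 2 and 3. Over all eligible genes B003 replicate 1 was closer to its own accession, with 0.862 for the former pair and 0.922 and 0.913 for the latter. B010 replicate 3 was closer by r to replicates 1 and 2 of its own accession than to B003 replicate 1 in both sets. Its r with them was 0.81 and 0.71 across the 200 genes, and 0.939 and 0.897 over all eligible genes. The counts on genes were between 29891192 and 47659515 per library and were highest in B010 replicate 1, and the libraries that stood apart had 30287766 (B010 replicate 3) and 36975048 (B003 replicate 1). In a bulk sample, fewer cells of a type and less RNA per cell cannot be told apart, and the part of tissue composition in this pattern was not tested.

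**Figure D1:**
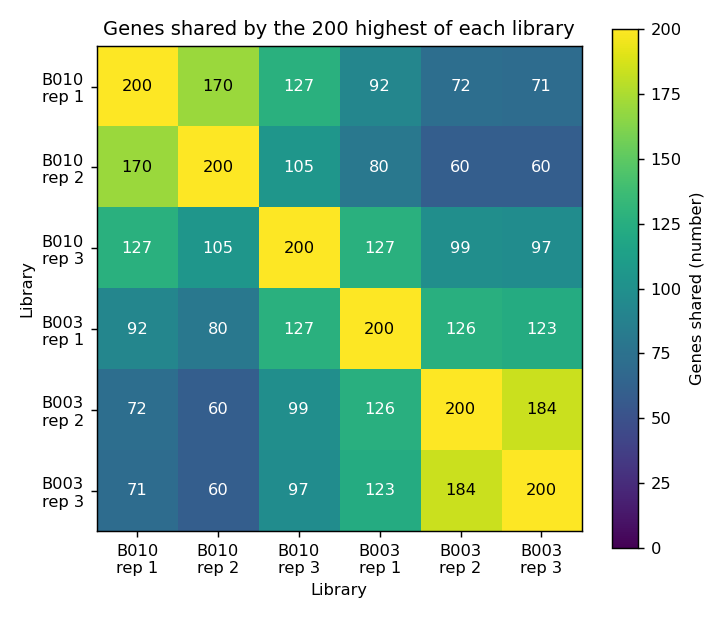
Number of genes shared by the 200 highest eligible genes of each pair of libraries, by FPKM, with libraries on both axes and the number in each cell. B010 replicates 1 and 2 (170) and B003 replicates 2 and 3 (184) form close pairs, while B010 replicate 3 and B003 replicate 1 share 127 with each other.

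The same 2 libraries lay between the close pairs in many of the genes. In 108 of the 200 genes, B003 replicates 2 and 3 both stood above B010 replicates 1 and 2, and in 82 of these B010 replicate 3 lay in between, B003 replicate 1 in 59 and both in 53. In the opposite direction, B003 replicates 2 and 3 both stood below B010 replicates 1 and 2 in 75 genes, with B010 replicate 3 in between in 28, B003 replicate 1 in 32 and both in 11. B003 replicate 1 lay closer to the B010 mean than to the mean of its own other replicates in 82 of the 200 genes, which was the case for B003 replicates 2 and 3 in 22 and 23. B010 replicate 3 lay closer to the B003 mean in 54 genes, against 17 and 37 for B010 replicates 1 and 2. None of these counts was made over all genes, and the list was chosen on the same values. They describe the list and are not read as particular to it. B010 replicate 3 was also the highest library of its accession in 129 of the 200 genes, and B010 replicate 2 was the lowest in 127. The same held over all eligible genes, of which 63.1% were highest in B010 replicate 3 and 61.0% lowest in B010 replicate 2, so this is not particular to the list. Since this affects the spread of both accessions, the counts below are also given without B010 replicate 3 and B003 replicate 1, a choice made after the values were seen.

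The 200 genes held a larger part of the B003 libraries than of the B010 libraries on average, mostly in B003 replicates 2 and 3. Their share of the counts was 12.2%, 11.8% and 12.7% in B010 replicates 1, 2 and 3 and 12.9%, 15.5% and 15.7% in those of B003, or 12.2% ± 0.465 and 14.7% ± 1.58 (SD, n = 3 each). The groups do not overlap, but B003 replicate 1, at 12.87%, lies close to B010 replicate 3, at 12.69%. Of the summed FPKM, in which each gene counts per length, the share was 16.9%, 16.1% and 18.0% in B010 and 18.0%, 21.6% and 22.3% in B003. Here the lowest B003 library, 18.03%, all but met the highest B010 library, 17.98%. The 200 genes ranked next held 7.24% ± 0.750 in B010 and 6.79% ± 0.267 in B003 (SD, n = 3 each), so the difference was not seen there. The 200 highest genes of each library itself, whichever they were, held 19.4%, 19.8% and 19.4% of the summed FPKM in B010 and 19.7%, 23.8% and 24.6% in B003. In that measure B003 replicate 1 fell within the B010 range, and B003 replicates 2 and 3 alone stood above it. The list of 200 genes holds 151 of the first 200 of B003 and 130 of the first 200 of B010. Its larger share in B003 can therefore follow in part from how it was made.

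**Figure D2:**
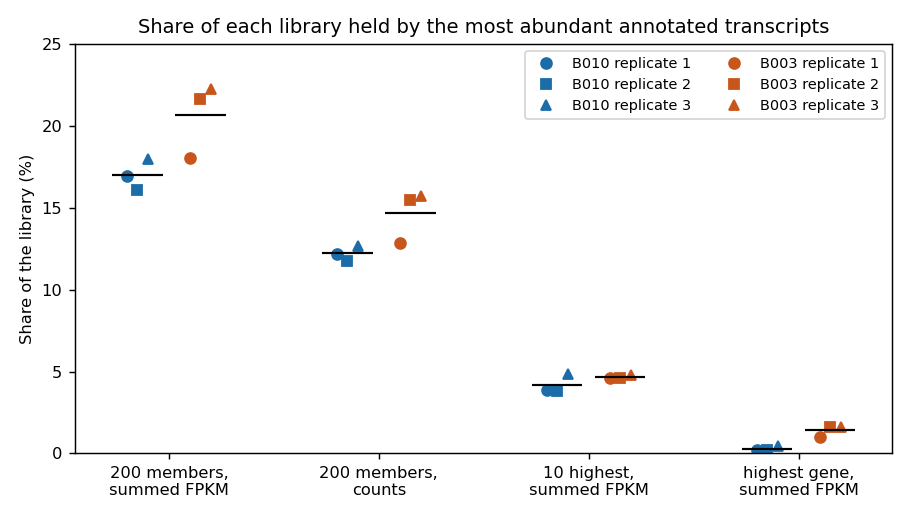
Share of each library (%, vertical axis) held by the 200 genes as summed FPKM and as counts, by the 10 highest genes and by the highest gene, with 1 point per library and a line at each accession's mean. B003 replicates 2 and 3 lie above all B010 libraries in the first pair of groups, at 21.6% and 22.3% of the summed FPKM, and B003 replicate 1 lies next to B010 replicate 3.

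The gap between the accessions came to 3.66 percentage points of the summed FPKM, from 17.0% in B010 to 20.6% in B003. The highest gene alone, Capann_59Chr03g049600, took 0.197%, 0.185% and 0.454% in B010 and 1.02%, 1.62% and 1.63% in B003. Without it, the other genes held 16.7%, 15.9% and 17.5% in B010 and 17.0%, 20.0% and 20.6% in B003, and the groups overlapped. Their shares of the counts then overlapped too, with 11.6% in B003 replicate 1 and 12.1% in B010 replicate 3. Next after Capann_59Chr03g049600 in their gain from B010 to B003 were the neighbours Capann_59Chr02g030540, Capann_59Chr02g030530 and Capann_59Chr02g030500, with gains of 0.290, 0.257 and 0.239 percentage points. The genes that held more in B010 were led by Capann_59Chr07g032870, with 0.539% in B010 and 0.0931% in B003, and Capann_59Chr09g022250, with 0.562% and 0.149%. The 114 genes not called as different, by the test given below, held 10.3% and 10.1%.

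The ranks were less alike between the accessions than the common list implies. Among the eligible genes, 83 of the 200 were in the first 200 of both accessions, 47 in that of B010 only, 68 in that of B003 only and 2 in neither. In every one of the 6 libraries, 52 were in the first 200. Ranked by the mean of each accession, 5 genes were in the first 10 of both, and 18 in the first 50 of both. At the other end, 14 genes ranked past 1000 in B010 and 8 past 1000 in B003, so they entered the list through 1 accession. The lowest rank was 12144 in B010, held by Capann_59Chr02g017010, and 7032 in B003, held by Capann_59Chr09g002350. The ranks of those genes in the other accession were 59 and 37.

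**Figure D3:**
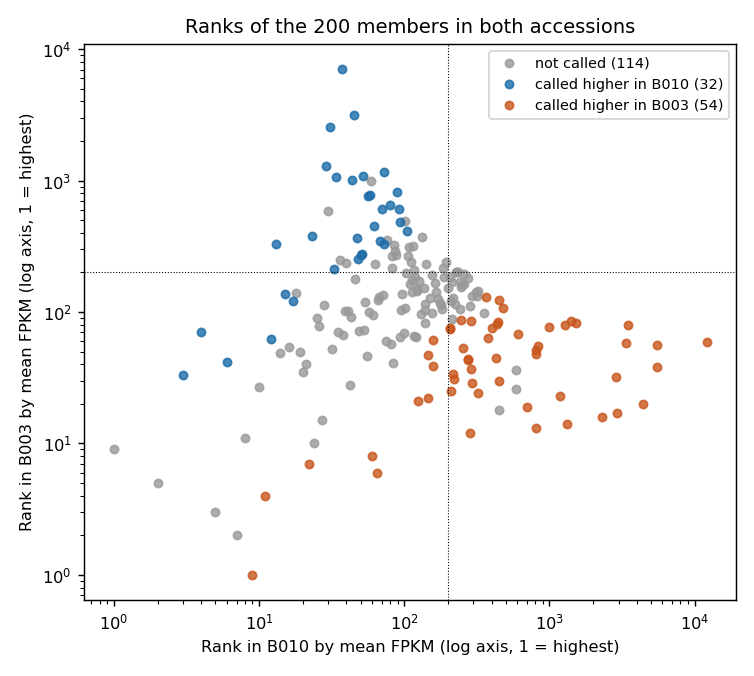
Rank of each of the 200 genes in B010 (horizontal) and in B003 (vertical) by mean FPKM, both on log axes where 1 is the highest, with dotted lines at rank 200 and colours for the 32 genes called higher in B010, the 54 called higher in B003 and the 114 not called. The 83 genes at the lower left of the dotted lines are in the first 200 of both accessions, and the 2 arms reach rank 12144 in B010 and 7032 in B003.

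The highest gene of the list was Capann_59Chr03g049600. It had 1172, 1089 and 2669 FPKM in B010 against 6155, 10179.9 and 10331.5 in B003 replicates 1, 2 and 3. It ranked first in each B003 library and between 7 and 14 in the B010 libraries, and the groups did not overlap. In the test of the counts over all genes, its log2 fold change, here also called the log2 ratio, of B010 over B003 was -2.51 (standard error, SE, 0.45, edgeR adjusted p = 0.00971). Without B010 replicate 1 the call was lost, with an edgeR adjusted p of 0.0511. The second gene, Capann_59Chr08g028670, led every B010 library, with 4068, 3985 and 4709 FPKM, against 3333, 1538 and 1355 FPKM in B003. Although the groups did not overlap, B003 replicate 1 stood near the B010 range, and the log2 fold change of 1.04 (standard error 0.35) missed the threshold with an edgeR adjusted p of 0.0563. Without B003 replicate 1 the gene was called, at 1.49 with an edgeR adjusted p of 0.00329, and the Wald test of DESeq2 called it with all libraries (adjusted p = 0.00978).

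At high and more even levels were 4 others of the first 10, none of which passed the test. Capann_59Chr01g002090 had 2812, 3465 and 3847 FPKM in B010 against 2942, 2930 and 2379 in B003. Capann_59Chr04g014230 had 2414, 2282 and 3495 FPKM in B010 against 3563, 2718 and 3031 in B003, and Capann_59Chr11g016210 stayed between 1465 and 1905 FPKM in all 6 libraries. In these 3 genes the accessions overlapped, and the log2 fold changes were 0.28, -0.21 and -0.12 with standard errors of 0.21, 0.18 and 0.16. Capann_59Chr12g007760 had 1861, 1715 and 3166 FPKM in B010 against 4190, 2925 and 3812 in B003, where only B010 replicate 3 reached the B003 range (log2 ratio -0.74, SE 0.24, edgeR adjusted p = 0.0574). This gene, Capann_59Chr01g002090 and Capann_59Chr04g014230 were the 3 that ranked in the first 10 of every library.

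The remaining 4 of the first 10 passed the test. Capann_59Chr09g022250 had 3583, 3222 and 3135 FPKM in B010 against 656, 1034 and 1101 in B003 (log2 ratio 1.81, SE 0.32, edgeR adjusted p = 0.00894). Capann_59Chr07g032870 had 3582, 2980 and 2975 FPKM in B010 against 422, 636 and 687 in B003 (log2 ratio 2.42, SE 0.31, edgeR adjusted p = 0.00328). Both were close to the top in B010, at ranks 3 and 4, and stood at ranks 33 and 71 in B003. In the other direction, Capann_59Chr08g030570 had 764, 779 and 929 FPKM in B010 against 1819, 2515 and 2519 in B003 (log2 ratio -1.50, SE 0.22, edgeR adjusted p = 0.00479). These 3 calls held with each library left out in turn. Capann_59Chr03g049580 had 1473, 1269 and 1719 FPKM in B010 against 2747, 2649 and 3351 in B003, and at a log2 fold change of -1.002 (SE 0.20, edgeR adjusted p = 0.0134) it sat on the limit of the fold change. The call was lost without B010 replicate 1 (edgeR adjusted p = 0.0677) and, by the fold change, without B010 replicate 2 and B003 replicate 3, at -0.97 and -0.87, and with other size factors.

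**Figure D4:**
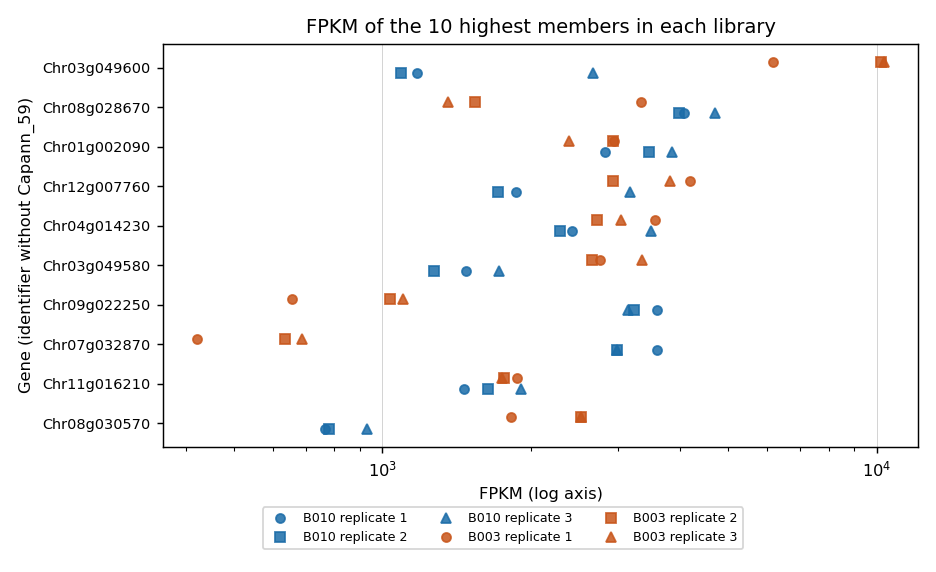
FPKM (horizontal, log axis) of the 10 highest genes in each of the 6 libraries, with 1 point per library, blue for B010 and orange for B003. Capann_59Chr07g032870 and Capann_59Chr09g022250 are separated in favour of B010, Capann_59Chr03g049600 and Capann_59Chr08g030570 in favour of B003, and Capann_59Chr11g016210 stays between 1465 and 1905 FPKM.

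Which of the 200 genes differed between the accessions was tested on the raw counts, with the quasi-likelihood test of edgeR over all 24738 genes that passed its expression filter, all 200 among them. A gene was called where its adjusted p did not exceed 0.05 and the size of its log2 fold change was 1 or more. Of the 200 genes, 86 were called, or 43%, where 25.3% of all tested genes were. The calls were 32 higher in B010, or 16%, against 12.5% of all tested genes, and 54 higher in B003, or 27%, against 12.8%. A mean over both accessions takes in genes that are very high in 1 of them, so a larger share of calls than the background can follow from how the list was made, and the share of calls is given without a test. Among the 83 genes in the first 200 of both accessions 16 were called, or 19.3%, with 6 higher in B010 and 10 in B003, but a high rank in both itself limits the fold change, so nothing is read from this share. All 44 calls among the genes in the first 200 of B003 only were higher in B003, and all 26 among those of B010 only were higher in B010, as the choice of those genes fixes.

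The median log2 fold change of the 200 genes was -0.26, beside 0.01 for all tested genes, and the median of its absolute value was 0.97, beside 0.57. The 200 genes ranked next had 79 calls, 42 toward B010 and 37 toward B003, and a median absolute value of 1.00. Among the 50 highest genes the calls were 7 in favour of B010 and 20 in favour of B003, and among those at places 51 to 100 they were 3 and 17. At places 101 to 150 the counts were 9 and 10, and at places 151 to 200 they were 13 and 7. No test of this order was made. Without a limit on the fold change 113 of the 200 were called, beside 38.8% of all tested genes. These were 41 higher in B010 (18.6% of all tested genes) and 72 higher in B003 (20.2%). With a limit of 2 on its absolute value 45 were called, beside 13.1%, namely 13 higher in B010 (7.01%) and 32 higher in B003 (6.05%). The FPKM of the accessions did not overlap in 128 of the 200 genes, or 64%, beside 49.8% of all tested genes. Of these, B010 was the higher in 48 and B003 in 80, beside 24.9% of all tested genes in each direction. Without B010 replicate 3 and B003 replicate 1 the number was 183 of the 200, beside 79.8% of all tested genes.

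The count of calls depended on which libraries were used. It was 42 without B010 replicate 1 (14.6% of all tested genes called), 51 without B010 replicate 2 (18.4%), 54 without B003 replicate 2 (17.3%) and 53 without B003 replicate 3 (16.6%). In contrast, it was 89 without B010 replicate 3 (28.1%) and 94 without B003 replicate 1 (27.5%), the libraries that stood apart. Without both of these it was 109 (34.4%), of which 84 were among the 86 calls, with 45 higher in B010 and 64 higher in B003. Of the 86 genes, 39 were called whichever library was left out, 17 of them higher in B010 and 22 higher in B003. Over all tested genes 13.2% met the same condition, 6.53% higher in B010 and 6.68% higher in B003.

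Several of the genes higher in B003 were among the most abundant of that accession and of ordinary or low rank in B010. Of the 8 largest calls in favour of B003 without overlap between the accessions, those with the smallest SE were Capann_59Chr04g032050 and Capann_59Chr10g026260. Capann_59Chr04g032050 had 31.9, 27.8 and 46.2 FPKM in B010 against 685, 583 and 637 in B003, an 18.0-fold higher mean (log2 ratio -4.20, SE 0.19, edgeR adjusted p = 0.000657). Capann_59Chr10g026260 had 22.6, 33.2 and 46.8 FPKM in B010 against 413, 685 and 499 in B003 (log2 ratio -4.00, SE 0.36, edgeR adjusted p = 0.00151). Both calls held with each library left out. That the lowest B003 library lay above the highest B010 library is fixed by the choice of genes without overlap. In all, every B003 library had at least 4 times the FPKM of every B010 library in 7 of the 200 genes, beside 2.75% of all tested genes, and the reverse held in 2, beside 3.44%.

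In a further pattern, which can overlap with the one before, B003 replicates 2 and 3 stood far above all other libraries. In 17 of the 200 genes these 2 libraries each had at least 4 times the FPKM of each of the other 4, B003 replicate 1 included, and 14 of these were called. Of all tested genes, 0.91% had this pattern. A mean over 6 libraries takes in genes that are very high in 2 of them. A larger share than the background can therefore follow from how the list was made. Capann_59Chr02g006530 had 18.3, 9.04 and 57.0 FPKM in B010 against 251, 1569 and 1915 in B003 (log2 ratio -5.61, SE 1.08, edgeR adjusted p = 0.0119). Capann_59Chr10g015960 had 31.4, 24.96 and 63.2 FPKM in B010 against 267, 1853 and 1989 in B003 (log2 ratio -5.20, SE 0.90, edgeR adjusted p = 0.00857). In both, B003 replicate 1 was intermediate yet above all of B010, and both were also among the 7 genes of the pattern before. The call of Capann_59Chr10g015960 held with each library left out, while that of Capann_59Chr02g006530 was lost without B010 replicate 1 (edgeR adjusted p = 0.0573). Capann_59Chr03g033230 had 15.8, 13.7 and 38.5 FPKM in B010 against 37.0, 960 and 989.9 in B003, so that B003 replicate 1 lay inside the B010 range. Its log2 fold change was -4.98 (SE 1.26, edgeR adjusted p = 0.0258), and the call was lost without B010 replicate 1 or 2 and without B003 replicate 2 or 3, with edgeR adjusted p from 0.0696 to 0.0986. For genes of this pattern, the accession mean describes replicates 2 and 3 and not replicate 1.

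In the opposite direction, B010 replicates 1 and 2 each had at least 4 times the FPKM of each other library in 4 of the 200 genes, 3 of them called, beside 1.3% of all tested genes. This count too depends on how the list was made. The 3 largest calls without overlap in favour of B010 had replicate 3 as their lowest B010 library, and all but Capann_59Chr03g000970 were among these 4. Capann_59Chr09g002350 had 786, 895 and 113 FPKM in B010 against 6.98, 42.4 and 3.11 in B003 (log2 ratio 5.11, SE 1.39, edgeR adjusted p = 0.0321). Capann_59Chr07g014020 had 820, 994 and 157 FPKM in B010 against 39.4, 71.2 and 22.6 in B003 (log2 ratio 3.93, SE 0.87, edgeR adjusted p = 0.0178). Capann_59Chr03g000970 had 643, 742 and 181 FPKM in B010 against 21.5, 62.2 and 27.9 in B003 (log2 ratio 3.83, SE 0.77, edgeR adjusted p = 0.0134). In all 3 genes, replicate 3 was well below the other B010 libraries. It lay above every B003 library, as the choice of genes without overlap fixes. Without B003 replicate 3 none of them was called, with edgeR adjusted p of 0.0786, 0.0639 and 0.0561, and without B010 replicate 1 only Capann_59Chr03g000970 was, with 0.0480 against 0.0854 and 0.0582. Capann_59Chr09g002350 was also not called without B010 replicate 2 or B003 replicate 1 (edgeR adjusted p = 0.0773 and 0.0727).

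The other 5 of the 8 largest calls without overlap in favour of B010 were mixed, and 3 of them held with each library left out. Capann_59Chr12g025440 had 1311, 1128 and 1210 FPKM in B010, at rank 13 of that accession, and 239, 186 and 207 FPKM in B003, at rank 332. Its log2 fold change of 2.52 had a standard error of 0.19 (edgeR adjusted p = 0.00101). Capann_59Chr07g009610 had 552, 694 and 283 FPKM in B010 against 91.6, 105 and 69.8 in B003 (log2 ratio 2.56, SE 0.44, edgeR adjusted p = 0.00847). Capann_59Chr07g020410 had 561, 765 and 291 FPKM in B010 against 95.8, 116 and 69.3 in B003 (log2 ratio 2.55, SE 0.47, edgeR adjusted p = 0.0100). B010 replicate 3 was again the lowest B010 library in the latter pair. Capann_59Chr10g025210 and Capann_59Chr01g012610, with log2 fold changes of 3.23 and 2.80 (edgeR adjusted p = 0.0182 for both), lost their calls without B010 replicate 1 (0.0593 and 0.0602) and without B003 replicate 3 (0.0694 and 0.0605), and the latter also without B010 replicate 2 (0.0520).

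**Figure D5:**
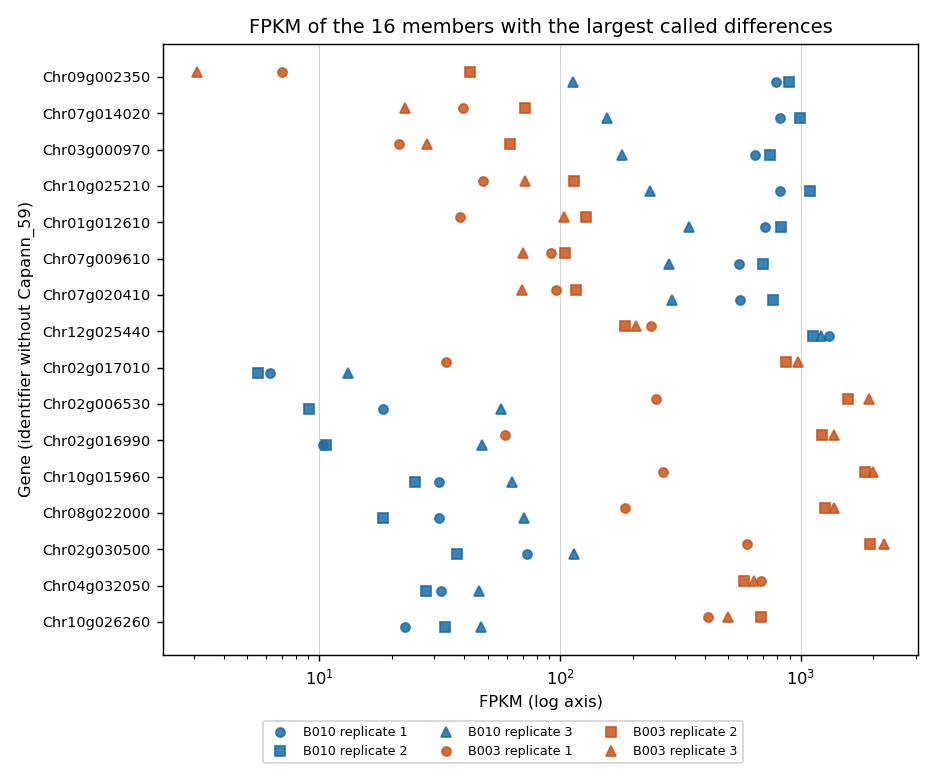
FPKM (horizontal, log axis) in each library of the 8 called genes with the largest log2 fold change in each direction whose libraries do not overlap, with 1 point per library, blue for B010 and orange for B003. In the upper 7 genes B010 replicate 3 (triangle) is the lowest B010 library, as for Capann_59Chr09g002350 at 113 FPKM, and in the 6 genes from Capann_59Chr02g017010 to Capann_59Chr02g030500 B003 replicate 1 (circle) is the lowest B003 library.

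Not all of the list varied. Over the 6 libraries, the ratio of the highest to the lowest FPKM was under 1.5 in 18 of the 200 genes and under 2 in 52, whereas it was above 10 in 40. The steadiest was Capann_59Chr06g004200, with 358, 344 and 369.8 FPKM in B010 against 345, 352 and 381 in B003, a ratio of 1.11. It was followed by Capann_59Chr08g011380, from 265 to 316 FPKM, Capann_59Chr05g015050, from 251 to 300.3 FPKM, Capann_59Chr07g018830, from 278 to 341 FPKM, and Capann_59Chr08g026630, from 325 to 409 FPKM. The log2 fold changes of these 5 genes lay between -0.17 and 0.14, with standard errors from 0.12 to 0.15. In Capann_59Chr08g011380 and Capann_59Chr07g018830 B003 nonetheless lay above B010 in every library, with edgeR adjusted p of 0.303 and 0.424.

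Replicates of 1 accession also differed widely in some genes. The highest B010 library exceeded the lowest by more than 4 times in 16 of the 200 genes and the highest B003 library by as much in 24. Neither count was made over all genes. The median coefficient of variation among replicates was 19.3% in B010 and 23.5% in B003, against 18.8% and 18.1% for eligible genes with a mean of at least 1 FPKM. For the 200 genes ranked next it was 19.3% in B010 and 20.9% in B003. Capann_59Chr08g021990 had the largest ratio of highest to lowest library within an accession, with 55.6, 1887 and 2169 FPKM in B003 and 43.9, 19.2 and 81.8 FPKM in B010, so that the accessions overlapped. It was nevertheless called (log2 ratio -4.95, SE 1.36, edgeR adjusted p = 0.0332), but of the fits without 1 library only that without B003 replicate 1 kept the call (edgeR adjusted p = 0.00324), the others giving 0.0565 to 0.115. Capann_59Chr06g004130 was uneven in both accessions, with 165, 383 and 27.9 FPKM in B010 against 37.7, 569 and 742 in B003. Its lowest libraries were B010 replicate 3 and B003 replicate 1, and it did not pass the test (log2 ratio -1.19, SE 1.27, edgeR adjusted p = 0.487). Altogether 18 of the 200 genes had B010 replicate 3 and B003 replicate 1 as their 2 highest libraries and 6 had them as their 2 lowest, none of them called. Such an order makes the accessions overlap, which itself works against a call. The 2 orders were not counted over all genes, so nothing is read from these counts. One of the 18 genes was Capann_59Chr09g026130 at the limit of the list, with 282, 221 and 317 FPKM in B010 against 511, 172 and 93.4 in B003.

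Some of the 200 genes lie next to each other. Consecutive cv.59 identifiers differ by 10, and 29 of the genes fell into 13 runs in which neighbouring members were at most 50 apart. In 11 of the 13 runs all members had their higher mean in the same accession. Neighbours were not counted over all genes, and 116 of the 200 genes had their higher mean in B003, so nothing is read from this count. The longest held 4 genes of chromosome 2, Capann_59Chr02g030500, Capann_59Chr02g030520, Capann_59Chr02g030530 and Capann_59Chr02g030540. Their ratio of counts to FPKM implied the same exon length, 724 bases, in each. Such neighbours may share reads if they are near-identical copies, and the sources used here do not state how reads that align to several places were counted, so the division of counts among them is uncertain.

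In these 4 neighbours B003 replicates 2 and 3 were the highest libraries, B003 replicate 1 came next and all of B010 was lower. Capann_59Chr02g030540 had 431, 302 and 671 FPKM in B010 against 911, 2875 and 3170.5 in B003. Capann_59Chr02g030530 had 438, 354 and 691 FPKM in B010 against 844, 2720 and 2864 in B003. Capann_59Chr02g030520 had 235, 85.0 and 284 FPKM in B010 against 418, 1246 and 1613 in B003. The strongest change was that of Capann_59Chr02g030500, with 72.6, 37.4 and 115 FPKM in B010 against 598, 1934 and 2221 in B003 (log2 ratio -4.50, SE 0.67, edgeR adjusted p = 0.00536), which was called with each library left out. The other 3 had log2 fold changes of -2.39, -2.19 and -2.53 (edgeR adjusted p = 0.0198, 0.0230 and 0.0260). They were called only without B010 replicate 3 or B003 replicate 1 among the fits that left out 1 library, the other fits giving edgeR adjusted p from 0.0621 to 0.0898.

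The second run of more than 2 genes did not move in 1 direction. It lies on chromosome 3 and holds the highest gene of the list, Capann_59Chr03g049600, with Capann_59Chr03g049580 and Capann_59Chr03g049570. The first pair was higher in B003, as given above, whereas Capann_59Chr03g049570 was higher in B010, with 2839, 1872 and 2213 FPKM in B010 against 911, 733 and 749 in B003 (log2 ratio 1.52, SE 0.21, edgeR adjusted p = 0.00455). This call held with each library left out. Among the pairs, Capann_59Chr02g016990 and Capann_59Chr02g017010 were nearly alike in their pattern. Capann_59Chr02g016990 had 10.4, 10.7 and 47.4 FPKM in B010 against 58.8, 1230.2 and 1373 in B003, and Capann_59Chr02g017010 had 6.23, 5.55 and 13.1 FPKM in B010 against 33.6, 871 and 975 in B003. The latter had the largest log2 fold change of the list, -6.34 (SE 1.33, edgeR adjusted p = 0.0149), and lost its call without B010 replicate 1 or 2 (edgeR adjusted p = 0.0681 and 0.0569). The former, at -5.42 (SE 1.35, edgeR adjusted p = 0.0247), was called only without B010 replicate 3 or B003 replicate 1 among those fits, the others giving 0.0668 to 0.0925. Capann_59Chr08g021990, given above, had such a neighbour too, Capann_59Chr08g022000, with 31.3, 18.4 and 71.1 FPKM in B010 against 187, 1258 and 1380 in B003. Here B003 replicate 1 lay above B010, and the call at a log2 fold change of -4.66 (SE 0.93, edgeR adjusted p = 0.0128) was lost only without B010 replicate 1 (edgeR adjusted p = 0.0606).

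The genes of the list were shorter than the eligible genes as a whole, and the part of the choice by FPKM in this was not tested. Exon lengths implied by the ratio of counts to FPKM, with the counts on genes standing in for all mapped reads, had a median of 1147 bases in the list and of 1645 bases over all eligible genes. Under 1000 bases lay 85 of the 200 genes, against 24.8% of all eligible genes. Ordered by counts scaled to library size without division by length, 119 of the 200 would have been chosen again and 21 would have stood past place 1000. The most extreme were Capann_59Chr07g031110, at place 17 by FPKM and 4175 by counts with an implied length of 53.3 bases, and Capann_59Chr07g031540, at places 25 and 3021 with 92.3 bases. Such lengths are shorter than a sequenced read, so the FPKM of these 2 genes rest on a small divisor. The highest gene, Capann_59Chr03g049600, was first in both orders, with an implied length of 2064 bases.

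The list was spread over all 12 chromosomes. Chromosome 6 held the most, with 25 of the 200 genes, or 12.5%, against 9.04% of the eligible genes, followed by chromosome 2 with 22 and chromosome 4 with 21. Chromosomes 5 and 11 held 9 each. Relative to their eligible genes, chromosome 4 had the highest share in the list, 1.36%, and chromosome 3 the lowest, 0.627%. These shares were not tested.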

How the data were processed

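Counts and FPKM of 24829 genes in 6 libraries were used. The raw counts deposited by the authors are whole numbers of reads per gene, from reads that were quality filtered and aligned with HISAT2 to the cv.59 genome, with StringTie also named in the submitters' processing notes. The FPKM deposited by the authors divide fragments by exon length and by mapped reads. The program, strand setting and treatment of multiply aligned reads behind the counts are not given in the sources used here. The fold changes, p-values and calls of the authors' own comparison in the table were not used. Columns were assigned to accessions by the table's first line, and the last digit of the column name was taken as the replicate number.

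Counts were tested with edgeR 4.0.16 (R 4.3.3): expression filter, TMM scaling, quasi-likelihood test of B010 against B003 over all 6 libraries, and Benjamini-Hochberg adjustment over 24738 genes. The standard error of each log2 fold change was taken from the F statistic, as the change over its square root. The procedure was tested on simulated data. Replicates differed by more than sampling noise (chi-square per degree of freedom of at least 28.7). Alternatives were DESeq2 1.42.0, limma 3.58.1 on log2(FPKM + 1) and log2(FPKM + 0.1), other scaling, filters and limits, the replicate number as a block, other choices of the 200 genes, and the omission of libraries.

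The 200 genes and the tests were chosen with earlier results of these data known. The genes named were the 10 highest, the 8 largest calls in each direction without overlap, the 5 steadiest, the 5 most uneven within an accession, the 3 on either side of the limit, the 3 with the largest gain in rank for each accession, and runs of 3 or more neighbours. Other neighbours, and the genes that led the gains in share, were chosen after their values were seen.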

Additional observations from a re-analysis of the deposited data

How the results depend on the processing

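The calls over all genes numbered 6260, and 9598 without a fold-change limit or 3229 with a limit of 2, where 45 of the 200 were called. Leaving out 1 library gave 3615 to 6967 calls over all genes, 42 to 94 among the 200 genes and 12 to 27 among the 41 named genes, against 28. The choice made after the values were seen, without B010 replicate 3 and B003 replicate 1, gave 8543, 109 and 29. The fit with a replicate block called 5458 genes and 68 of the 200. Whether same-numbered libraries form pairs cannot be told from 3 replicates of each accession. Their deviations correlated at 0.01, 0.13 and 0.23. B010 replicates 2 and 3 correlated best with the B003 library of the same number, and B010 replicate 1 with B003 replicate 2, at 0.14. A pairing was not tested. The share of the counts, 12.2% in B010 and 14.7% in B003, became 17.0% and 20.6% of the summed FPKM, 15.3% and 17.1% for the 200 genes chosen by library-scaled counts, and 13.0% and 15.5% of the counts on annotated genes. The 83 genes in the first 200 of both accessions became 73 to 96 with 1 library left out, 65 without both that stood apart, 62 when ranked by library-scaled counts and 92 by the geometric mean. No called named gene changed direction in the 16 refits. Of 13 named genes not called, 3 changed sign when 1 library was left out. Capann_59Chr06g004200 ranged from -0.10 to 0.038 and was 0.023 without B010 replicate 3. Capann_59Chr05g015050 ranged from -0.11 to 0.031 in these fits, with 0.018 without B010 replicate 1 and 0.025 without B003 replicate 3. Without both libraries that stood apart it was 0.0396. Capann_59Chr09g026130 ranged from -0.29 to 0.96, with -0.097 without B003 replicate 2. The causes were not tested.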
